A study of Mus musculus with 16 samples.

Results

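In hearts of mouse embryos with a deletion of the transcription factors Meis1 and Meis2 in cardiomyocytes, 8 of the 16118 genes listed for the study are described here, all of which differed from controls the same way in atria and ventricles. Cdhr1, Lingo1, Arhgap36, Ripor2, Alox5 and Gm15487 were higher in knockout hearts, and Dgkk and Alox8 were lower. They were chosen by their measured difference between knockout and control hearts in both chambers, so that difference is described here and not tested. Among the 13950 genes whose mean level reached 1 CPM (a read count scaled to the size of the library, the unit used throughout), 128 were called the same way in both chambers at an adjusted p under 0.05, or 0.918% of them, and the 8 genes are some of these. Ranked by the larger of their adjusted p-values in the 2 chambers, Cdhr1 stood at 2, Lingo1 at 4, Gm15487 at 6, Ripor2 at 8, Alox5 at 14, Dgkk at 29, Alox8 at 40 and Arhgap36 at 48. The gene next in that order was Asb2, a subunit of a muscle ubiquitin ligase. Its log2 difference was -0.81 in atria and -0.32 in ventricles. Ties were ordered by gene symbol, and Asb2 was tied with Arhgap36, as Sfrp5, at 3, was with Cdhr1.

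Both groups of embryos carried floxed alleles, Meis1flox/flox; Meis2flox/flox, and were taken at E15.5. The 4 knockout embryos (dKO) also carried 1 copy of the α-MHC-Cre transgene (aMHC tg/wt), whose alpha-myosin heavy chain promoter is active in cardiomyocytes, and the 4 control embryos did not (aMHC +/+). Cre and the deletion therefore go together in every comparison, and the other cells of the heart keep both genes. Each embryo gave 1 atrial and 1 ventricular library after removal of the outflow tract, which makes 16 libraries in 4 groups of 4. The series speaks of 4 litters with a control and a dKO embryo from each, but the numbers that open the sample titles form 3 other sets, called here title group A (1 dKO embryo), B (2 control and 2 dKO embryos) and C (2 control and 1 dKO embryo).

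Meis proteins are homeodomain factors of the TALE class that bind DNA with Pbx partners, and the core of their binding motif reads TGACAG. They act in the growth and patterning of the embryonic heart. The 8 genes differ in kind. Cdhr1 and Lingo1 encode membrane proteins, Arhgap36 and Ripor2 encode regulators linked to small GTPases, Alox5, Alox8 and Dgkk encode enzymes of signalling lipids, and Gm15487 is a processed pseudogene.

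A library held 7880189 to 22975051 listed reads, and the dKO ventricles, with at most 14281320, were the shallowest group. The floor of detection, 3 reads, was worth between 0.110 and 0.312 CPM. Meis1 was measured at 64.5% of control in dKO atria (exact permutation test, two-sided, n = 4 and 4, p = 0.0286, the smallest this design allows) and at 98.5% in dKO ventricles (exact p = 0.8), while Meis2 was at 105% in atria (exact p = 0.486) and 59.6% in ventricles (exact p = 0.0286). These are reads over whole genes and do not measure the deleted exons alone. In these bulk libraries fewer cells of a type and less RNA per cell cannot be told apart.

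**Figure D1:**
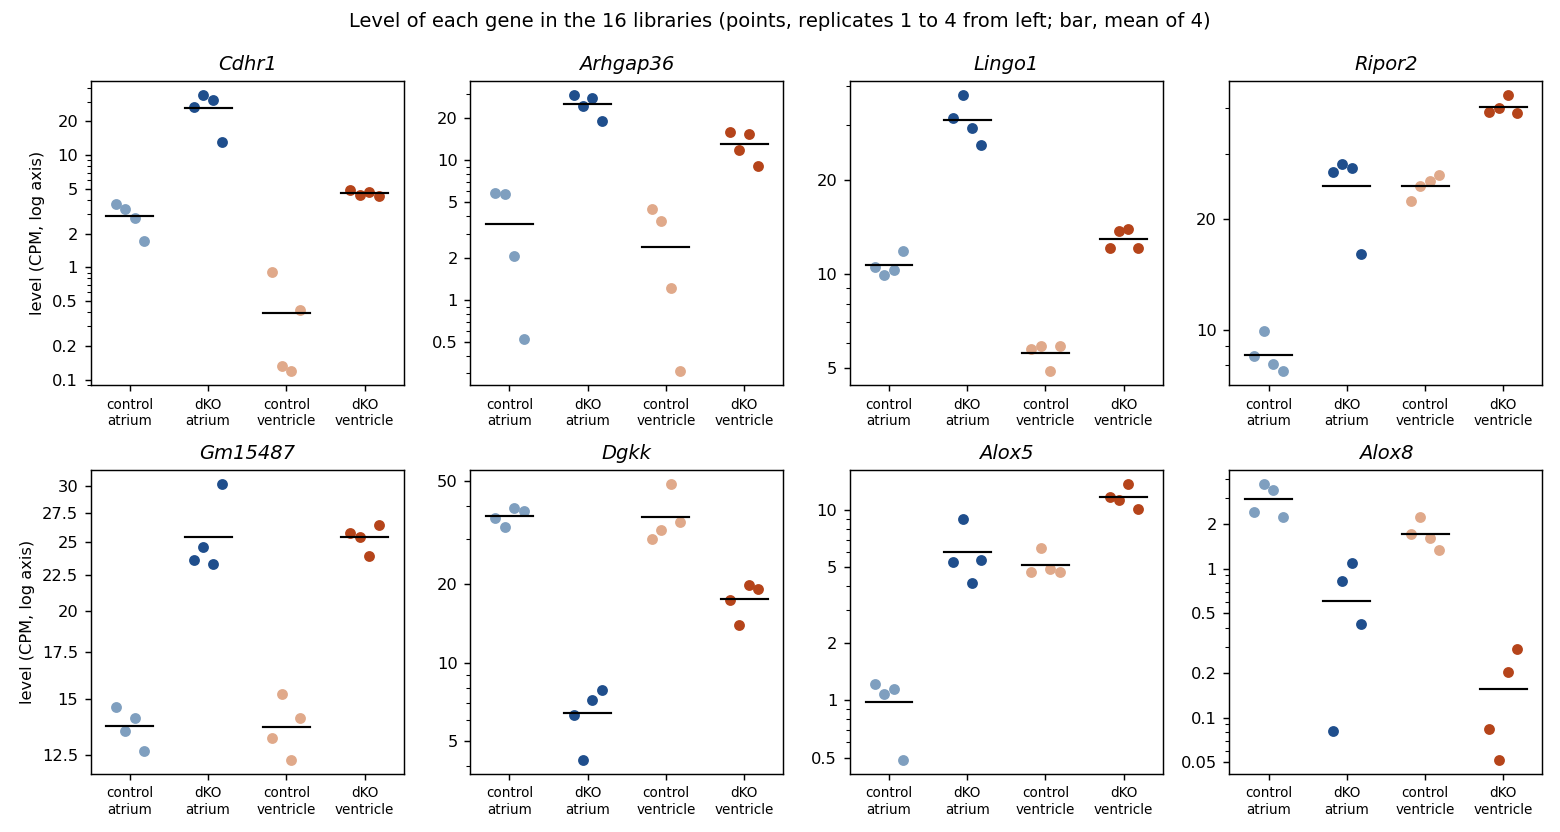
Level of each of the 8 genes in every library, in CPM on log axes that differ between panels. Points are the 4 libraries of a group and the bar is their mean. In each chamber the dKO points of every gene lie wholly above or wholly below the control points.

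Cdhr1 encodes a cadherin-related protein best known from the outer segments of photoreceptors. It lies on the minus strand at chr14:37077857-37098347 (GRCm38). In control atria it measured 3.65, 3.33, 2.77 and 1.71 CPM in replicates 1 to 4, and in dKO atria 26.6, 34.4, 30.8 and 13.2 CPM. In control ventricles the values were 0.909, 0.132, 0.119 and 0.421 CPM, from 19, 2, 2 and 11 reads, and in dKO ventricles 4.93, 4.42, 4.66 and 4.30 CPM. The groups did not overlap in either chamber, and even the highest control atrium stayed below the lowest dKO ventricle. Mean CPM was 9.16 times the control in dKO atria and 11.6 times the control in dKO ventricles. The summed reads gave a ventricular ratio of 11.9 with a counting interval (95%) of 8.34 to 17.6, and like all intervals here it covers counting error only. On the scale of log2(CPM + 1), which compresses low levels, the difference was 2.77 ± 0.27 (SE) in atria and 2.03 ± 0.19 in ventricles. The 4 groups ranked dKO atrium, dKO ventricle, control atrium and control ventricle, with no overlap between neighbours.

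Lingo1 encodes a transmembrane protein with leucine-rich repeats that works with the Nogo receptor in neurons. It lies on the minus strand at chr9:56618475-56796468. It measured 10.5, 9.91, 10.3 and 11.8 CPM in control atria and 31.6, 37.4, 29.2 and 25.9 CPM in dKO atria. In ventricles it measured 5.76, 5.87, 4.88 and 5.87 CPM in controls and 12.1, 13.7, 13.9 and 12.1 CPM in dKO embryos. Replicates were tight, with a coefficient of variation from 7.44% to 15.7% across the 4 groups, and no dKO library reached down to the controls of its chamber. The log2 difference was 1.45 ± 0.11 in atria and 1.08 ± 0.11 in ventricles, and mean CPM was 2.92 and 2.32 times the control. The order of the groups was the same as for Cdhr1, again with no overlap between neighbours.

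Arhgap36 encodes a member of a family of GTPase-activating proteins that is known as an activator of hedgehog signalling and an inhibitor of protein kinase A. It lies on the plus strand at chrX:49463945-49500244. It measured 5.80, 5.76, 2.06 and 0.528 CPM in control atria and 29.4, 24.6, 28.1 and 19.0 CPM in dKO atria. Control ventricles held 4.45, 3.66, 1.21 and 0.311 CPM and dKO ventricles 15.8, 11.8, 15.3 and 9.07 CPM. The groups did not overlap, yet the controls spread widely, with a coefficient of variation of 75.3% in atria and 81.5% in ventricles. The log2 difference was 2.76 ± 0.40 in atria and 2.23 ± 0.37 in ventricles, the widest errors of the 8 genes. Mean CPM was 7.15 and 5.40 times the control.

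The spread of Arhgap36 followed the title groups. In both chambers the 2 control embryos of title group B had more than those of C, on average 5.78 against 1.29 CPM in atria and 4.06 against 0.763 CPM in ventricles. The dKO embryo of C was likewise the lowest of its group in both chambers. Within B the dKO mean was 4.56 times the control mean in atria and 3.34 times in ventricles, and within C it was 14.7 and 11.9 times. Title group A holds no control, so it gives no such value. Lower values in C were not particular to Arhgap36. The control atria of C were below those of B for Cdhr1 and Ripor2 too, and the control ventricles of C for Alox8. The order was reversed for Dgkk in both chambers and for Ripor2 in ventricles, where controls of C were higher. In all other cases, among them the ventricles of Cdhr1, the controls of B and C overlapped. The dKO embryo of C was the lowest dKO atrium also for Cdhr1, Lingo1 and Ripor2, and the highest for Gm15487 and Dgkk. Among dKO ventricles it was the lowest also for Cdhr1, Ripor2 and Alox5, and the highest for Gm15487 and Alox8.

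**Figure D2:**
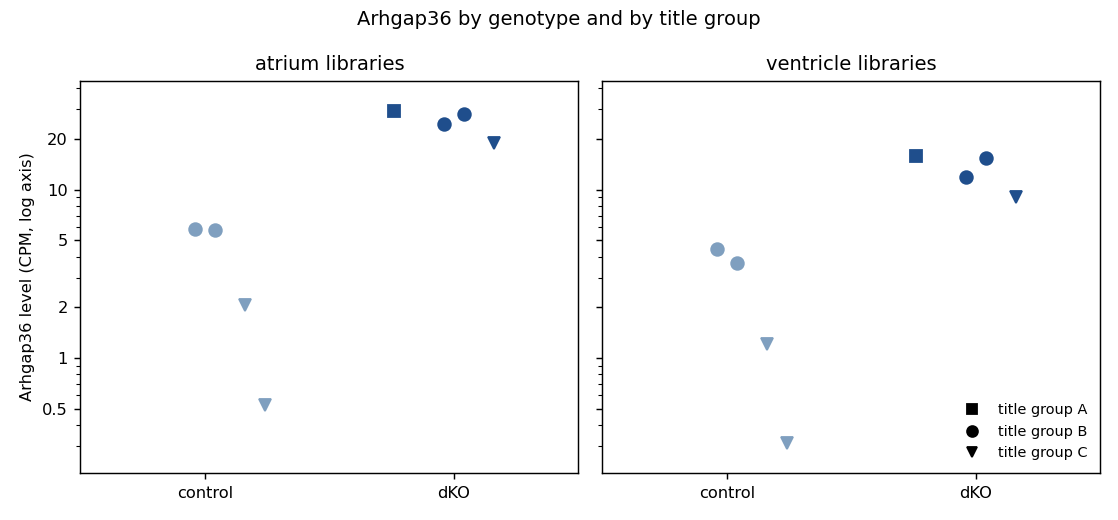
Arhgap36 level in CPM on a shared log axis, in atrial (left) and ventricular (right) libraries, by genotype. Marker shapes give the title group. Control embryos of C lie below those of B in both chambers, and dKO embryos lie above all controls.

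The sequence before the annotated start of Arhgap36 is shown because it holds the Meis core motif on each strand. The capitals mark TGACAG and its reverse complement CTGTCA, which start 63 and 15 bases before the start site in RefSeq's table of GRCm38.p6 (chrX:49463695-49463944, plus strand).
Arhgap36 upstream: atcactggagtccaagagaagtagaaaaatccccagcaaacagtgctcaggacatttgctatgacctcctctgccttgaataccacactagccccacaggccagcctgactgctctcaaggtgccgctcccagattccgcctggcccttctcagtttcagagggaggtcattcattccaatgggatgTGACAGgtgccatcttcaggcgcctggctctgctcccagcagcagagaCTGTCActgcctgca
RefSeq promoters, here 250 bases before to 50 bases after a start, were given for 7 of the 8 genes, 11 windows in all. Of these 11, the motif was found on either strand in the window above and in that of Cdhr1, where it starts at base 35 after the start site (chr14:37098298-37098325, minus strand, capitals as before).
Cdhr1 start: gatctgtgagcgCTGTCAtccgcttaac
Of all 32851 windows of this length in the table, 19.2% hold the motif at least once and 2.33% hold it at 2 or more places. The longer composite motif of Pbx and Meis, searched on both strands and containing the core, was in none of the 11 windows and in 0.222% of all. A match is a description of letters in a short window and does not mark a bound site.

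Ripor2 encodes a protein that binds and inhibits RhoA and is known from immune cells and from the hair cells of the ear. It lies on the plus strand at chr13:24582189-24733816. In control atria it measured 8.47, 9.91, 8.06 and 7.71 CPM and in dKO atria 26.8, 28.2, 27.4 and 16.04 CPM. In control ventricles it measured 22.3, 24.5, 25.3 and 26.3 CPM and in dKO ventricles 38.9, 40.1, 43.4 and 38.6 CPM. All dKO libraries were above the controls of their chamber, and dKO replicate 4 stood apart from the other dKO atria. The dKO atria overlapped with control ventricles, with means of 24.6 ± 5.74 and 24.6 ± 1.68 CPM (SD, n = 4 each). The log2 difference was 1.40 ± 0.16 in atria and 0.69 ± 0.07 in ventricles.

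Alox5 encodes 5-lipoxygenase, which turns arachidonic acid into the precursor of the leukotrienes and is best known from myeloid cells. It lies on the minus strand at chr6:116410077-116461178. It measured 1.22, 1.08, 1.14 and 0.486 CPM in control atria and 5.35, 9.01, 4.13 and 5.48 CPM in dKO atria. It measured 4.73, 6.29, 4.93 and 4.74 CPM in control ventricles and 11.7, 11.4, 13.8 and 10.1 CPM in dKO ventricles. As for Ripor2, dKO and control did not overlap within a chamber, whereas dKO atria overlapped with control ventricles. The mean was 6.10 times the control in atria and 2.27 times in ventricles, and the log2 difference 1.79 ± 0.22 and 1.04 ± 0.13.

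Alox8 encodes the mouse 8-lipoxygenase, the counterpart of human ALOX15B, and differed in the opposite direction to Alox5. It lies on the minus strand at chr11:69183932-69197843. Control atria held 2.41, 3.73, 3.38 and 2.22 CPM and dKO atria 0.0815, 0.830, 1.10 and 0.425 CPM, from 1, 20, 27 and 8 reads. Control ventricles held 1.70, 2.24, 1.60 and 1.34 CPM, while dKO ventricles gave 1, 0, 3 and 4 reads. The dKO ventricles were thus near the floor of 3 reads, and 3 of the 4 were at or below it. Their 8 reads against 147 in control ventricles gave a depth-adjusted ratio of 0.0800 (counting interval 0.0339 to 0.162), and in atria 56 against 262 reads gave 0.221 (0.162 to 0.296). The log2 difference was -1.32 ± 0.23 in atria and -1.23 ± 0.17 in ventricles, sizes that the pseudocount of 1 holds down.

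Dgkk encodes diacylglycerol kinase kappa, an enzyme that converts the second messenger diacylglycerol into phosphatidic acid. It lies on the plus strand at chrX:6779306-6948363. Control atria measured 35.9, 33.2, 39.1 and 38.2 CPM and dKO atria 6.28, 4.23, 7.19 and 7.88 CPM. Control ventricles measured 29.9, 32.3, 48.8 and 34.8 CPM and dKO ventricles 17.4, 14.0, 19.9 and 19.3 CPM. The controls of both chambers overlapped, and below them the dKO ventricles and then the dKO atria formed separate ranges. Dgkk was at 17.5% of its control mean in dKO atria (log2 -2.37 ± 0.15) and at 48.4% in dKO ventricles (log2 -0.99 ± 0.14). Arhgap36 and Dgkk are X-linked. Y-linked Ddx3y was present in all 16 libraries at 42.1 to 64.4 CPM and X-linked Xist is not listed, so no group held an embryo without Y-linked reads.

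Gm15487, at chr6:37806086-37806550 on the plus strand, is annotated in GENCODE M21 as Atp6v0c-ps2, a processed pseudogene of Atp6v0c, which encodes the proteolipid subunit of the vacuolar proton pump. Its 465 bases match the coding sequence of Atp6v0c at 464 positions (99.8%). A stretch of 90 bases around the only difference, at chr6:37806151-37806240, shows how close the 2 are, with the differing base in capitals.
Gm15487: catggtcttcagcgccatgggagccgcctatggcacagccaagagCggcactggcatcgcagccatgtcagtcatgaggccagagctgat
Atp6v0c: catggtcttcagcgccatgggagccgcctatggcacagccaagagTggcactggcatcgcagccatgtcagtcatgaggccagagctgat
Of the 406 possible reads of 60 bases in Gm15487, 346 also occur in Atp6v0c transcripts and only 60, those across that base, do not. How reads were shared between the 2 is set by the counting program, and the level of Gm15487 is uncertain for that reason.

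Gm15487 measured 14.6, 13.5, 14.1 and 12.7 CPM in control atria and 23.6, 24.6, 23.3 and 30.3 CPM in dKO atria. It measured 13.2, 15.2, 12.3 and 14.1 CPM in control ventricles and 25.8, 25.4, 23.9 and 26.5 CPM in dKO ventricles. Both control groups overlapped, as did both dKO groups, and the log2 difference was 0.84 ± 0.09 in atria and 0.85 ± 0.08 in ventricles. Atp6v0c, looked at after the values of Gm15487 were seen, had 146 ± 8.51 and 141 ± 9.03 CPM in control and dKO atria, and 152 ± 8.18 and 134 ± 3.43 CPM in control and dKO ventricles (SD, n = 4). Its difference did not pass the test in atria (log2 -0.06 ± 0.06, limma adjusted p = 0.675) or ventricles (-0.18 ± 0.05, adjusted p = 0.0821), although all 4 dKO ventricles, at 130.1 to 138 CPM, were below all 4 control ventricles, at 143 to 162 CPM. The sum of both genes ranged from 152 to 183 CPM over the 16 libraries and overlapped between genotypes. Gm15487 made up 7.43% to 9.64% of that sum in control atria and 14.1% to 16.6% in dKO atria, and 7.36% to 9.65% and 14.7% to 16.9% in ventricles.

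**Figure D3:**
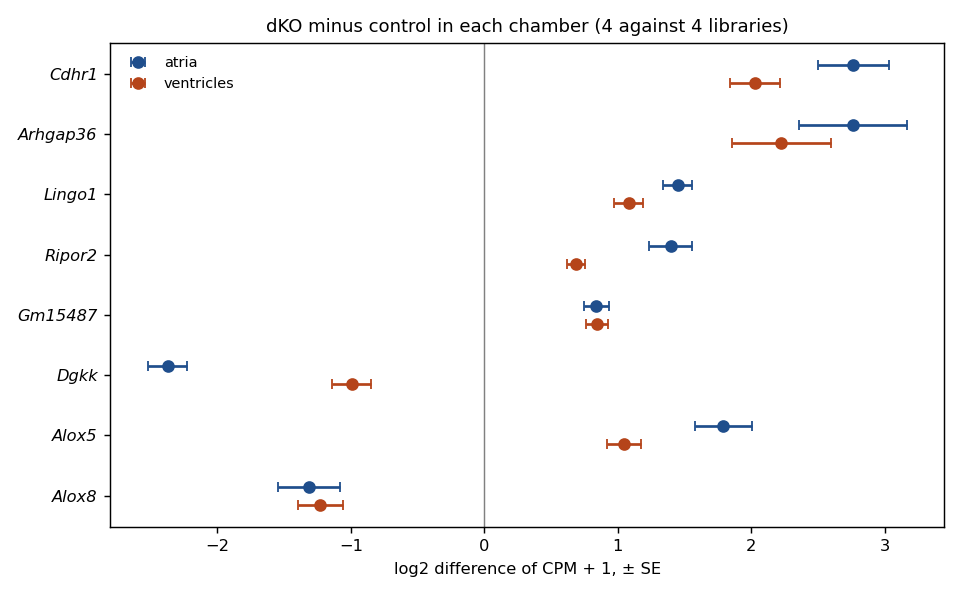
Difference between dKO and control on the scale of log2(CPM + 1) for the 8 genes, in atria (blue) and ventricles (orange), with standard errors from 4 against 4 libraries. Points right of 0 were higher in dKO hearts. On this scale, with its pseudocount of 1, Dgkk, Ripor2, Cdhr1, Alox5, Lingo1 and Arhgap36 lie further from 0 in atria. The error bars of Arhgap36 overlap between chambers. The markers of Gm15487 and, on this scale, those of Alox8 nearly coincide.

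The size of the difference was compared between chambers as a description, because the same contrasts chose the genes. The ventricular minus the atrial log2 difference was 1.38 ± 0.20 (SE) for Dgkk, which was lower by more in atria. It was -0.71 ± 0.17 for Ripor2, -0.75 ± 0.24 for Alox5, -0.73 ± 0.32 for Cdhr1 and -0.37 ± 0.14 for Lingo1, all higher by more in atria on this scale. It was -0.53 ± 0.55 for Arhgap36, 0.01 ± 0.12 for Gm15487 and 0.09 ± 0.27 for Alox8, each within 1 SE of 0. Of all tested genes 2.64% passed a test of this difference (limma). For Cdhr1 and Alox8 the comparison depends on the scale. The ratio of mean CPM was 9.16 in atria and 11.6 in ventricles for Cdhr1. Mean CPM of Alox8 was 4.82 times lower in dKO atria and 10.98 times lower in dKO ventricles, and DESeq2 on recovered reads gave log2 differences of -2.28 and -3.67. All 8 genes passed the minimum level, and all 8 were called in each chamber and did not overlap between genotypes in either. Among all tested genes 7.47% were called in atria, 2% in ventricles, and 2.57% did not overlap in the same direction in both. Nothing is read from these shares, since the contrasts chose the genes.

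Chamber differences did not choose the genes and were tested, with atrium and ventricle of an embryo kept as a block. The tests use the same 16 libraries as the genotype comparisons, so they are not independent of the choice of the genes. Cdhr1 and Lingo1 were higher in atria in both genotypes. Ripor2 and Alox5 were higher in ventricles in both genotypes. Dgkk differed between chambers in dKO embryos, and Gm15487 did not pass the test in either genotype. In control embryos 5 of the 8 genes passed the test, beside 46.9% of all tested genes, and in dKO embryos 5 passed, beside 49.1%.

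Ventricle minus atrium, Cdhr1 measured log2 -1.48 ± 0.23 in control embryos (limma adjusted p = 3.60e-05) and -2.21 ± 0.23 in dKO embryos (adjusted p = 2.55e-07). Lingo1 measured -0.82 ± 0.10 (limma adjusted p = 1.33e-06) and -1.19 ± 0.10 (adjusted p = 9.57e-09). In both genes the chambers did not overlap, so atria were higher in 4 of 4 embryos of each genotype. Ripor2 measured 1.43 ± 0.12 in controls (limma adjusted p = 2.46e-08) and 0.72 ± 0.12 in dKO embryos (adjusted p = 9.26e-05). Alox5 measured 1.65 ± 0.17 (limma adjusted p = 3.00e-07) and 0.90 ± 0.17 (adjusted p = 0.000266). For Ripor2 and Alox5 every ventricle was above every atrium of the same genotype.

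Dgkk did not pass the chamber test in control embryos, at log2 -0.03 ± 0.14 (limma adjusted p = 0.893). It was higher in ventricles than atria of dKO embryos, at 1.35 ± 0.14 (adjusted p = 3.76e-07). That value nearly repeats the 1.38 by which its dKO effect differed between chambers. Since the genotype contrasts chose Dgkk, this p-value is not separate support. Gm15487 gave -0.0027 ± 0.08 in control and 0.0036 ± 0.08 in dKO embryos (limma adjusted p = 0.983 and 0.975). Alox8 was lower in control ventricles by a small margin (-0.53 ± 0.19, limma adjusted p = 0.0320) that held in 8 of 16 alternative settings, with p up to 0.149, and gave -0.44 ± 0.19 in dKO embryos (adjusted p = 0.0696). On recovered reads its difference in dKO embryos was larger and called, at -2.02 by edgeR (adjusted p = 0.0132) and -2.06 by DESeq2 (adjusted p = 0.00910), and limma called it with a pseudocount of 0.5 (adjusted p = 0.0470) and without dKO replicate 1 (adjusted p = 0.0239). Arhgap36 gave -0.39 ± 0.39 in controls (limma adjusted p = 0.449) and -0.92 ± 0.39 in dKO embryos (adjusted p = 0.0605). All 4 dKO atria were above all 4 dKO ventricles for Arhgap36, and tests on recovered reads called its difference (edgeR adjusted p = 2.24e-06 in dKO and 0.00166 in control embryos).

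**Figure D4:**
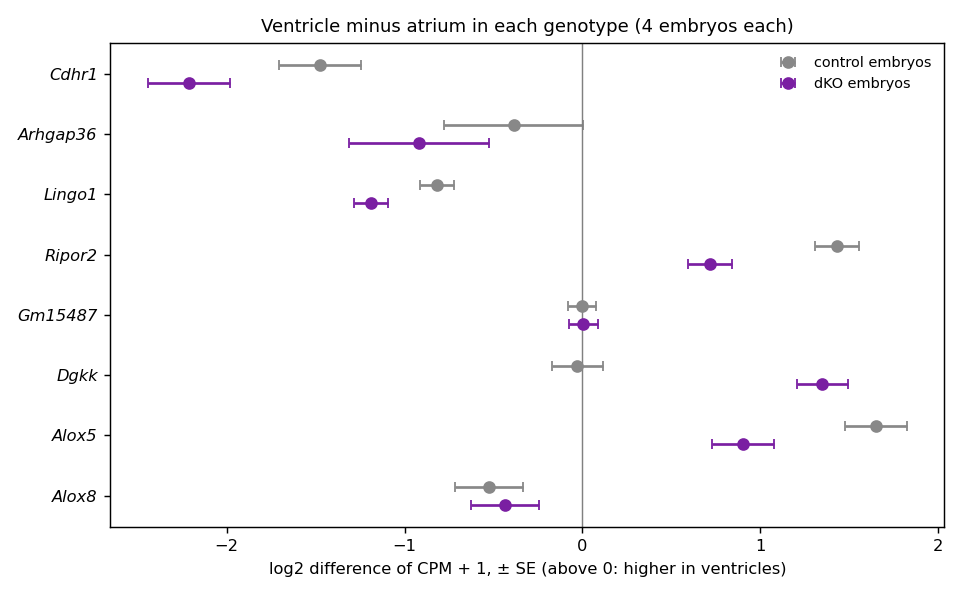
Ventricle minus atrium on the scale of log2(CPM + 1) for the 8 genes in control (grey) and dKO (purple) embryos, with standard errors from the fit with embryo as a block. Points right of 0 were higher in ventricles. Cdhr1 and Lingo1 lie left of 0 and Ripor2 and Alox5 right of 0 in both genotypes, and Dgkk lies near 0 in control embryos and right of it in dKO embryos.

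Markers of the chambers were summed beside these values. Summed ventricular myocyte markers, 8 genes, overlapped between control atria (438 to 1615 CPM) and dKO atria (266 to 1085 CPM). In ventricles the same sum was 20617 to 22742 CPM in controls and 18301 to 19897 CPM in dKO embryos, without overlap. Of the 8, 0 rose and 2 fell in each chamber (limma), beside 7.47% of all tested genes called in atria and 2% in ventricles. DESeq2 called 6 of them in ventricles, where their median log2 difference was -0.23. Summed atrial myocyte markers, 10 genes, came to 1877 to 2380 CPM in control ventricles and 4102 to 4821 CPM in dKO ventricles. This rise did not run through the whole list. The median log2 difference in ventricles was 0.08, the lowest was -0.51 and the highest, for Nppa, was 1.90. Of the 10, 3 rose and 0 fell there (limma), beside 2% of all tested genes called. In atria their sum was 10601 to 12588 CPM in controls and 13412 to 14758 CPM in dKO embryos. There 3 of the 10 rose and 2 fell (limma), with a median log2 difference of 0.0019. The part of chamber mixing in the levels of the 8 genes was not tested.

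Levels per length put the 8 genes on 1 scale. Divided by the kilobases of all annotated exons, Dgkk had 5.11 CPM per kb in control atria, Lingo1 2.26, Arhgap36 1.03, Alox8 0.825, Ripor2 0.732, Cdhr1 0.661 and Alox5 0.239. In dKO atria the order was Arhgap36 at 7.39 CPM per kb, Lingo1 at 6.58, Cdhr1 at 6.06, Ripor2 at 2.11, Alox5 at 1.46, Dgkk at 0.894 and Alox8 at 0.171. Dgkk thus went from the highest of these 7 levels to the last but 1. Gm15487, with 29.5 CPM per kb in control and 54.7 in dKO atria, is left out of the order because of its reads shared with Atp6v0c.

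The pathways around the 8 genes were followed through lists of genes chosen with earlier results of these data known. Of 164 tested list genes outside the 8, 15 rose and 6 fell in dKO atria, and 3 rose and 1 fell in dKO ventricles (limma). Their median log2 difference was 0.03 in atria and -0.03 in ventricles, beside -0.0046 and -0.018 over all tested genes. The 7.47% called among all genes in atria and the 2% in ventricles are the background for these counts.

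Among 12 other genes of the lipoxygenase and leukotriene list, only Pla2g4a, the cytosolic phospholipase that frees arachidonic acid, rose in atria, from 7.66 to 10.7 CPM (log2 0.43 ± 0.11, limma adjusted p = 0.0307). That call held in 11 of 18 alternative settings (adjusted p up to 0.124), being lost with title group B alone and without control replicates 2, 3 or 4 or dKO replicates 1, 2 or 3, and the count of genes called in the list ran from 0 to 4. None passed in ventricles, where 1 had an unadjusted p under 0.05 and edgeR and DESeq2 called 0. Alox5ap, the partner protein that 5-lipoxygenase needs, had means of 2.07 and 2.69 CPM in control and dKO atria and 2.15 and 1.99 CPM in ventricles (limma adjusted p = 0.474 and 0.986). Lta4h, which forms leukotriene B4, had 127 and 108 CPM in atria (limma adjusted p = 0.109). In the cyclooxygenase and prostanoid list of 17, prostacyclin synthase Ptgis (0.65 ± 0.15, limma adjusted p = 0.0194) and the prostaglandin-degrading Hpgd (0.42 ± 0.09, adjusted p = 0.0185) rose in atria and 0 passed in ventricles, with 2 at an unadjusted p under 0.05 and 0 by edgeR or DESeq2. The Ptgis call held in 14 of 18 settings and was lost without control replicates 3 or 4 or dKO replicate 3. The Hpgd call held in 15 of 18 and was lost without control replicates 3 or 4. Both were also lost with title group B alone (limma adjusted p = 0.0590 for Ptgis and 0.234 for Hpgd).

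None of the other diacylglycerol kinases passed the test. Of 6 tested, 0 passed in either chamber by limma, edgeR or DESeq2, with 1 in each chamber at an unadjusted p under 0.05. Dgkz, the one with the highest level, had 103 and 104 CPM in control and dKO atria and 88.6 and 96.3 CPM in ventricles. In the list of enzymes that form diacylglycerol and of its targets, 3 of 25 rose in atria, among them the phospholipases Plcb1 (0.77 ± 0.12, limma adjusted p = 0.00295) and Plcb4 (0.55 ± 0.07, adjusted p = 0.000853), and the kinase Prkca fell (-0.51 ± 0.09, adjusted p = 0.00612). In ventricles 0 passed by limma and edgeR, 1 by DESeq2, and 8 had an unadjusted p under 0.05.

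For the pathways linked to Arhgap36, the hedgehog list had 1 of 14 genes that rose in atria, the co-receptor Gas1 (0.21 ± 0.05, limma adjusted p = 0.0249), and 0 that passed in ventricles by limma, edgeR or DESeq2, with 1 at an unadjusted p under 0.05. In the protein kinase A list of 15, the anchoring protein Akap12 rose in atria (0.41 ± 0.09, limma adjusted p = 0.0175), the regulatory subunit Prkar2b fell (-0.34 ± 0.09, adjusted p = 0.0498), and 0 passed in ventricles, with 3 at an unadjusted p under 0.05, 0 by edgeR and 1 by DESeq2. The Prkar2b call held in 6 of 18 alternative settings (adjusted p up to 0.131), and leaving out any embryo but control replicate 4 ended it. The Gas1 call held in 13 of 18. It was lost with title group B alone (limma adjusted p = 0.136) and without control replicates 1 or 3 or dKO replicates 1 or 2. That of Akap12 held in 15 of 18 and was lost without control replicates 2 or 4 or dKO replicate 3. The list of RhoA and related small GTPases, which surrounds Ripor2, had 0 of 26 past the test in either chamber by limma, edgeR or DESeq2, with 1 in each at an unadjusted p under 0.05. RhoA itself (Rhoa) had 249.9 and 253 CPM in control and dKO atria and 284 and 279.5 CPM in ventricles (limma adjusted p = 0.892 and 0.879).

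Around Lingo1, 1 of 12 tested genes of the Lingo and Nogo receptor list, which is wider than the receptor complex, rose and 2 fell in atria. Rtn4rl1, a Nogo receptor homologue, rose (0.46 ± 0.06, limma adjusted p = 0.00103), and the co-receptor Tnfrsf19 (-0.55 ± 0.09, adjusted p = 0.00413) and the kinase Wnk1 (-0.41 ± 0.07, adjusted p = 0.00544) fell. Wnk1 fell also in ventricles (-0.28 ± 0.04, limma adjusted p = 0.00255). Among 20 cadherin-related genes besides Cdhr1, 4 rose and 1 fell in atria and 2 rose in ventricles. Protocadherin 18 (Pcdh18) rose in both chambers (0.83 ± 0.08, limma adjusted p = 0.000111 in atria, and 0.42 ± 0.08, adjusted p = 0.0214 in ventricles). Its ventricular call held in 13 of 18 alternative settings and was lost with title group B alone (adjusted p = 0.272) and without control replicates 1, 2 or 4 or dKO replicate 1. Pcdh9 (0.95 ± 0.18, limma adjusted p = 0.00780) and the calsyntenin Clstn3 (0.84 ± 0.18, adjusted p = 0.0169) rose in atria, and the giant cadherin Fat3 rose in ventricles (0.76 ± 0.11, adjusted p = 0.00277). Of 14 classical and desmosomal cadherins, the desmocollin Dsc2 fell in atria, from 42.2 to 8.89 CPM (-2.12 ± 0.11), Cdh20 rose in atria (0.49 ± 0.11, limma adjusted p = 0.0257) and Cdh13 rose in ventricles (0.37 ± 0.05, adjusted p = 0.00335). The atrial call of Clstn3 was lost without control replicates 2 or 4 or dKO replicates 2 or 3, and that of Cdh20 without control replicates 1 or 3 or dKO replicates 2 or 3. With title group B alone the ventricular calls of Wnk1 (adjusted p = 0.126) and Cdh13 (adjusted p = 0.0984) were lost.

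**Figure D5:**
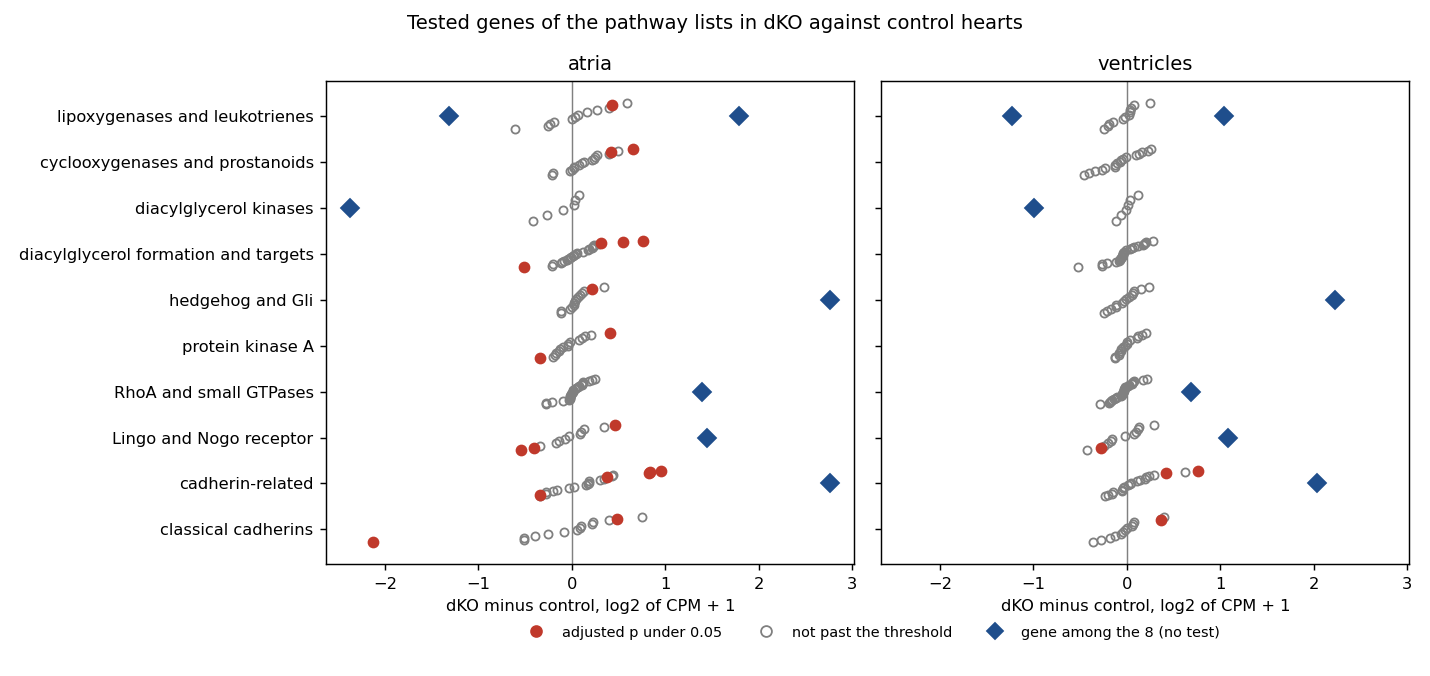
Difference between dKO and control on the scale of log2(CPM + 1) for each tested gene of 10 pathway lists, in atria (left) and ventricles (right). Filled red points passed the limma test at an adjusted p under 0.05, open points did not, and blue diamonds are those of the 8 genes that belong to the list. Most open points lie near 0. The diamonds lie outside the range of the other genes of their list, from which nothing is read, because this difference chose the 8 genes.

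Of 19 photoreceptor genes, 3 are listed, and the defining Crx and Nrl are not. Abca4, a retinoid transporter, rose in atria from 4.16 to 8.84 CPM (log2 0.92 ± 0.18, limma adjusted p = 0.00907), and in ventricles 0 of 3 passed by limma, edgeR or DESeq2, with 1 at an unadjusted p under 0.05. For Lingo1, 8 neural and glial markers were tested, and 0 passed in either chamber by limma, edgeR or DESeq2, with 0 in atria and 1 in ventricles at an unadjusted p under 0.05. All 13 genes of that list are listed, and their sum ranged from 19.3 to 106 CPM in control atria and from 12.04 to 62.4 CPM in dKO atria. For Alox5, all 14 macrophage markers are listed and their sum was 113 to 138 CPM in control atria, 118 to 193 in dKO atria, 92.2 to 111 in control ventricles and 96.3 to 109.7 in dKO ventricles. Of 13 tested, 1 (C1qb) rose in atria, where 6 had an unadjusted p under 0.05, edgeR called 1 and DESeq2 2, and the median log2 difference was 0.38. In ventricles 0 passed, with 2 at an unadjusted p under 0.05, 0 by edgeR and DESeq2, and a median of -0.0030. The part of macrophage RNA in the level of Alox5 was not tested. Of 12 granulocyte and mast cell markers 7 are listed, and Mpo, Elane and S100a8 are not.

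Cell type markers also moved in dKO atria. Of 10 smooth muscle and pericyte markers 4 rose and 1 fell, 3 of 12 fibroblast markers rose, and 2 of 10 cardiomyocyte markers fell (limma). Of 12 endothelial markers 2 rose and 1 fell, 1 of 11 epicardial markers rose, and 0 of 9 erythroid markers passed. Among all tested genes 7.47% were called in atria. In ventricles 0 markers of these 6 lists passed by limma. Summed cardiomyocyte markers were 24983 to 28787 CPM in control and 21657 to 23867 CPM in dKO atria, and these ranges do not overlap. In ventricles they were 20230 to 24602 and 21185 to 24178 CPM. The part of these shifts in the atrial values of the 8 genes was not tested.

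Within 100 kb of the 8 genes GENCODE M21 places 47 other genes, of which 15 are listed and 12 were tested. In atria 2 of the 12 passed the test and in ventricles 1. Cspg4, a proteoglycan of pericytes that lies 68.6 kb from Lingo1, rose in atria (log2 1.21 ± 0.12, limma adjusted p = 0.000114) and not past the test in ventricles (-0.15 ± 0.08, adjusted p = 0.491). Gm11346, a transcribed pseudogene inside Ripor2 on the opposite strand, rose in ventricles from 2.64 to 5.42 CPM (0.83 ± 0.15, limma adjusted p = 0.0136). That call was lost without dKO replicate 3 (limma adjusted p = 0.0537) and with title group B alone (0.303). In atria its difference of 0.69 ± 0.19 (adjusted p = 0.0495) held in 3 of 17 alternative settings. The use of strand is not given in the sources used here, so reads of Gm11346 and of Ripor2 introns cannot be told apart. March8, which lies 0.537 kb from Alox5, had 69.2 and 70.2 CPM in control and dKO atria (limma adjusted p = 0.885).

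Log2 profiles over the 16 libraries, each centred on its own mean, were compared by their root mean square difference. For each of the 8, the most similar gene outside the 8 was sought. For Cdhr1 and for Arhgap36 it was Sfrp5, a secreted Wnt antagonist, at 0.55 and 0.75. For Ripor2 and for Alox5 it was Sobp, at 0.27 and 0.43. Gm15487 was closest to the Wnt receptor Fzd1 at 0.17, Dgkk to the transcriptional cofactor Cited1 at 0.37, Alox8 to the glucagon receptor Gcgr at 0.37, and Lingo1 to the long noncoding RNA Gm47015 at 0.25. Among the 8 themselves the closest were Ripor2 and Alox5 at 0.33, so Ripor2 was nearer to Alox5 than Sobp was. These likenesses describe 16 libraries and rest largely on the group differences that named the genes.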

How the data were processed

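Polyadenylated RNA, selected from 20 ng of total RNA, was sequenced to 60 bases from 1 end, per the labels' protocols. The submitters' processing notes name cutadapt, RSEM 1.3.1 and the build GRCm38. How values were scaled, which annotation was used and whether strand was used is not stated in the sources at hand. The deposited values are CPM of 16118 genes in 16 libraries. In each library a value is 1 fixed step multiplied by whole reads plus 0.5. Of the values, 100% gave whole reads within 0.001, and these recovered reads served for depth and count tests.

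Tests used limma 3.58.1 (R 4.3.3), moderated statistics with a trend, on log2(CPM + 1), for the 13950 genes whose mean reached 1 CPM, two-sided with Benjamini-Hochberg adjustment over all of them. Genotypes were compared within a chamber, 4 against 4. Chambers were compared over all 16 libraries with embryo as a block (consensus correlation 0.108), because the titles tie an atrium and a ventricle to each embryo. The p-values measure the spread between these embryos. Meis1 and Meis2 were compared by an exact permutation test over 70 arrangements.

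The 8 genes and the gene lists were chosen with earlier results of these data known. Genes named besides these were, per list, up to 3 with the smallest adjusted p under 0.05 in a chamber or else those with the highest level, tested neighbours within 100 kb, the most similar profile of each gene, the next gene in rank, Meis1 and Meis2, and sex-linked genes. Atp6v0c, Alox5ap, Lta4h and marker genes named outside this rule were chosen after their values were seen. Tested on simulated data, the fit found 74.11% of genes given a log2 change of 1 in atria and 76.79% in ventricles. It found 47.73% and 44.32% of those given 0.5, with 4.58% and 6.02% false calls. The simulation changed 112 genes by 1 and 88 by 0.5. It drew libraries independently, with no effect of title group or embryo, so these shares may not hold for the real data. Coordinates and exon overlaps come from GENCODE M21, promoters from RefSeq. None of the 8 genes shares exons with another gene. Alternatives were pseudocounts of 0.5 and 5, no filter, a mean of at least 5 CPM, quantile and TMM scaling, edgeR 4.0.16 and DESeq2 1.42.0 on recovered reads, the title group as a block, title group B alone, and leaving out each embryo.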

Additional observations from a re-analysis of the deposited data

Results flagged for a closer look

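Among 212 groups of 4 libraries checked, 10 had a library that stood far from the other 3, a share near the 1 in 20 that chance gives. Of the 8 genes, this was seen for Lingo1 in control ventricle replicate 3 (4.88 CPM, the lowest), Ripor2 in dKO atrium replicate 4 (16.04 CPM, the lowest) and Alox5 in control ventricle replicate 2 (6.29 CPM, the highest). Without dKO replicate 4 the atrial log2 difference of Ripor2 was 1.58, beside 1.40 with it. Among other genes it was seen for Dgkz in dKO ventricle replicate 2 (89.1 CPM), Fat3 in dKO ventricle replicate 1 (24.3 CPM), Fzd1 in control atrium replicate 2 (67.1 CPM) and dKO atrium replicate 4 (100.7 CPM), Gm11346 in control ventricle replicate 1 (3.57 CPM) and dKO ventricle replicate 3 (6.57 CPM), and Trim24 in control ventricle replicate 2 (37.7 CPM).

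For genes outside the 8, the dKO effect in ventricles minus that in atria passed a test of the difference itself (limma over all 16 libraries with embryo as a block). On the log2 scale it was 0.60 for Meis1 (adjusted p = 0.00464) and -0.79 for Meis2 (adjusted p = 0.000573). It was 2.12 for Dsc2, 1.21 for Cited1 and 0.49 for Asb2, each lower by more in dKO atria. It was -1.36 for Cspg4, -1.32 for Abca4, -1.02 for Sobp, -1.001 for Sfrp5, -0.76 for Ptgis and -0.35 for Plcb4, each with a higher value in atria. Adjusted p-values of these 9 genes ranged from 5.74e-09 for Dsc2 to 0.0382 for Ptgis.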

How the results depend on the processing

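The count of genes called the same way in both chambers moved from 128 to 51 with title group B alone and to 237 with DESeq2, and to between 82 and 113 when 1 embryo was left out. Without control replicate 4 it was 83 and without dKO replicate 3 it was 82. The ventricular count moved from 279 to 79 with title group B alone and to 469 with DESeq2. The atrial count of 1042 ranged from 695 to 1546 and stayed within 1.5 times. The log2 sizes of low genes depend on the pseudocount and the tool: for Cdhr1 in ventricles they ran from 0.83 (pseudocount 5) to 3.60 (DESeq2), for Alox8 in ventricles from -3.67 (DESeq2) to -0.38 (pseudocount 5), and for Alox5 in atria from 0.86 (pseudocount 5) to 2.64 (DESeq2). With 0 to 4 reads, the level of Alox8 in dKO ventricles is limited by depth. The chamber difference of Alox8 in controls lost its call in 8 of 16 alternatives, including all 4 that left out a control embryo, and that of Arhgap36 in dKO embryos gained one in 5 of 17.

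The title groups are not shown by the labels to pair control and dKO embryos. With the title group as a replicate block, 1392 genes were called in atria, 242 in ventricles and 125 the same way in both. Without the embryo block, 6160 chamber differences were called in controls and 6515 in dKO embryos, beside 6543 and 6844 with it.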
